A study of Mus musculus with 6 samples.

Results

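The comparison set a wild-type line against 1 line with a mutated IGCR1, using 4 of the 6 ATAC-seq libraries of the series: the 2 WT and the 2 CBE_1 libraries. Members were taken from the sample titles alone, and the CBE_2 line was not used. Both are mouse pro-B cell lines from bone marrow of strain 129SV, deficient in RAG2 and grown without any treatment. WT has wild-type IgH alleles, and CBE_1 is labelled IGCR1-/-. Each group is 1 line with 2 libraries, made from 200000 cells with 11 cycles of PCR. The labels do not say whether the duplicates came from separate cultures, so the spread between them may be technical. With 1 line per genotype, line and genotype cannot be told apart.

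Pro-B cells are the stage at which the immunoglobulin heavy chain locus, IgH, is assembled: a D segment is joined to a J segment, and a VH segment is then joined to DJ by the RAG1 and RAG2 recombinase. IGCR1 lies between the VH and D segments and carries binding elements for CTCF, an insulator protein that anchors chromatin loops. Intact IGCR1 is known to keep the VH segments closest to D apart from the D and J segments. ATAC-seq reads out open chromatin through cuts by the Tn5 transposase, and a peak is a stretch with more cuts than its background. From a pool of cells, a site open in fewer cells and a site less open in each cell cannot be told apart.

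The WT lists held 112241 and 106056 peaks and the CBE_1 lists 72318 and 80242. The peaks covered 77.8 ± 3.33 Mb (SD, n = 2) in WT and 56.1 ± 4.93 Mb (SD, n = 2) in CBE_1. Neither measure overlapped between the lines. For both, the two-sided exact permutation p over the 4 libraries was 0.33, the smallest that 2 against 2 allows, so this test cannot pass a threshold of 0.05 for any comparison of these libraries. The lists carry no read counts and the depth is unknown. The comparisons were therefore repeated with the 72318 most significant peaks of each list, called lists of equal length below. That length left the lowest −log10 q at 7.18 and 6.76 in WT but at 1.41 and 3.61 in CBE_1, so equal length is not equal stringency.

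Peaks that overlapped by at least 1 bp were merged into 135825 regions, of which 50364 had a peak in all 4 libraries. WT-only regions, with a peak in both WT libraries and in neither CBE_1 library, numbered 25071, or 18.5% of all regions. CBE_1-only regions, defined the other way round, numbered 3906, or 2.88%. WT-only regions were thus 6.42 times as many with the deposited lists and 1.83 times as many with lists of equal length, where the counts were 11653 (11.9%) and 6355 (6.51%). Regions found in 1 of the 2 libraries of a line outnumbered both classes: there were 34637 for WT (28.6% of all regions with a WT peak) and 25821 for CBE_1 (31.5%). At equal length they numbered 13469 and 22917. Leaving out 1 library loosens both definitions, since fewer libraries must hold or lack a peak. Without WT replicate 2 the WT-only count was 43907, and without WT replicate 1 it was 38115. The CBE_1-only count was 10233 without CBE_1 replicate 1 and 9285 without CBE_1 replicate 2.

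**Figure D1:**
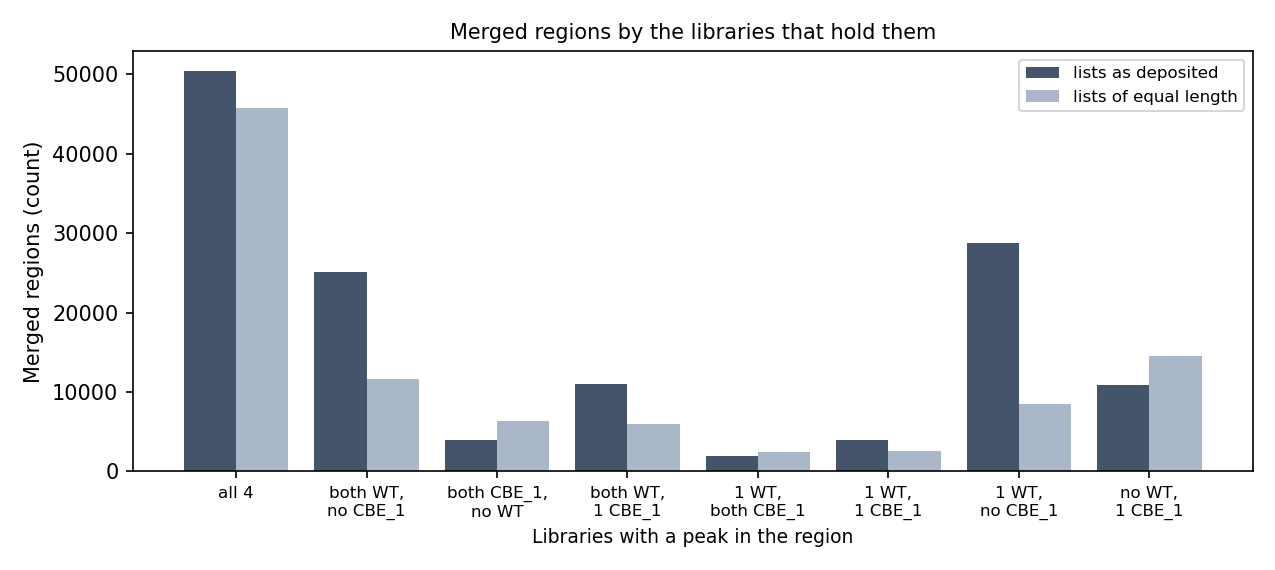
Number of merged regions (y axis) by the libraries that hold a peak there (x axis), for the deposited lists (dark bars) and for lists of equal length (light bars). Regions in all 4 libraries are the most numerous class, and the gap between 25071 WT-only and 3906 CBE_1-only regions narrows to 11653 and 6355 at equal length.

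Strong peaks were mostly shared between the lines and the weakest WT peaks were mostly not. When each list was split by significance into quintiles of equal size, 96.3% to 97.3% of the strongest quintile of WT peaks overlapped a CBE_1 peak. In the weakest quintile the share was 13.6% to 23.3%. The duplicate WT library gave 100% for the strongest quintile, and 39.7% and 54.7% for the weakest. In the middle quintile 95.8% and 98.5% of WT peaks overlapped a peak of the duplicate, against 45% to 62.4% for CBE_1. With lists of equal length the overlap of WT peaks with CBE_1 was 75.5% to 81.1% in the middle quintile and 32.4% to 40.9% in the weakest. In the other direction, 98.8% to 98.9% of the strongest quintile of CBE_1 peaks overlapped a WT peak. For the weakest quintile of CBE_1 replicate 1 the duplicate gave 54.0%, below the 59.9% and 57.1% of the longer WT lists. At equal length this order turned for CBE_1 replicate 1, with 46.8% for the duplicate and 41.3% and 40.0% for the WT lists. For CBE_1 replicate 2 it did not turn. There the duplicate gave 32.3% with the deposited lists, against 60.0% and 56.2% for the WT lists. With lists of equal length it gave 40.6%, against 45.2% and 43.5%.

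**Figure D2:**
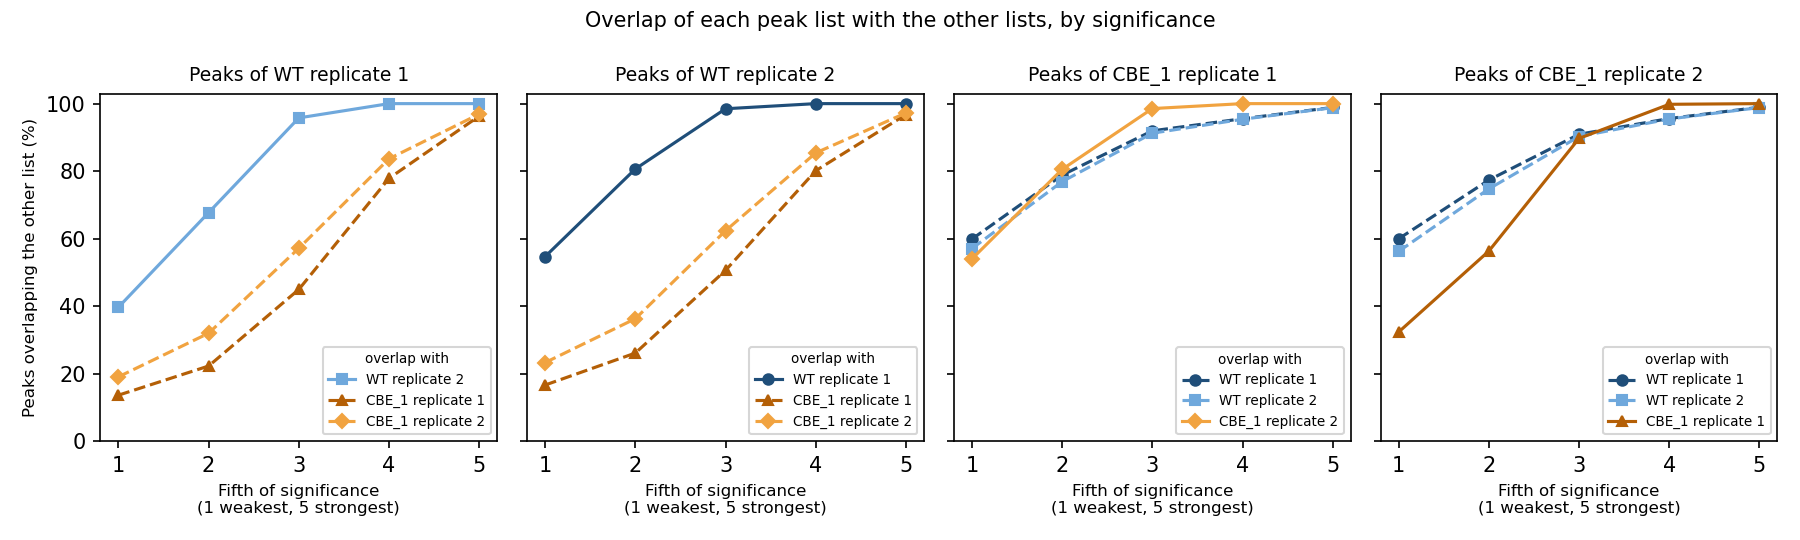
Share of peaks of each list (1 panel per list) that overlap a peak of another list (y axis, %; deposited lists), by quintile of significance from weakest to strongest (x axis); solid lines join duplicates of a line and dashed lines join different lines. In the WT panels the CBE_1 lines run below the duplicate and come nearest to it in the strongest quintile (96.3% to 97.3% against 100%), while in the CBE_1 panels the WT lines start above the duplicate in the weakest quintile.

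Ranks were compared on the 50364 regions in all 4 libraries, so that every library orders the same set. Within each library the deposited fold of these regions (the authors' enrichment over background, the highest peak of the region) was turned into a percentile. A region ranked higher in CBE_1 when both CBE_1 percentiles exceeded both WT percentiles, and lower in the reverse case. By this rule 36.4% of the shared regions ranked higher in CBE_1 and 33.3% ranked lower. The lines' mean percentiles differed by a median of 7.28 points in either direction, against 2.75 points between the WT libraries and 3.99 between the CBE_1 libraries. Shifts of 25 points or more between the lines' means occurred in 2131 regions upward and 2652 downward. The WT libraries were that far apart in 11 regions and the CBE_1 libraries in 938. Regions of 1 library are not replicates of a condition, so no test was run across regions, and shares within a locus are read against the rest of the same chromosome.

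At IgH, CBE_1 had more of its peaks inside the locus and ranked most of its regions higher. The window took up 0.204% and 0.213% of the peaks in the WT libraries, with 95% Wilson intervals from 0.179% to 0.232% and from 0.187% to 0.243%. In the CBE_1 libraries it took up 0.377% and 0.386%, with intervals from 0.335% to 0.425% and from 0.346% to 0.432%. The intervals cover counting error only, with each peak counted as independent, and say nothing of the spread between lines. Those of the 2 lines do not overlap. With lists of equal length the shares were 0.235% and 0.249% in WT and 0.377% and 0.390% in CBE_1. Across the genome, 34.5% of bins of 1 Mb with at least 20 peaks had both CBE_1 shares above both WT shares. In absolute numbers the window held 229 and 226 WT peaks and 273 and 310 CBE_1 peaks, although the CBE_1 lists were shorter in all. Of its 334 regions 10 were WT-only (2.99%, against 20.5% on the rest of chromosome 12) and 32 were CBE_1-only (9.58%, against 2.78%). Of the 165 shared regions 128 ranked higher in CBE_1 (77.6%, against 34.0%) and 9 ranked lower (5.45%, against 35.5%). With lists of equal length 79.9% ranked higher, and the window had 7 WT-only and 49 CBE_1-only regions. Leaving out 1 library loosens the rule for such regions. It moved the CBE_1-only count to 82 (without CBE_1 replicate 1) and 57 (without CBE_1 replicate 2). It moved the WT-only count to 16 (without WT replicate 2) and 21 (without CBE_1 replicate 2).

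A shared region must have a peak in the shorter CBE_1 lists. The shared regions were also split by their mean percentile over the 4 libraries. The split does not undo that selection: every quintile holds only such regions, and the mean includes the CBE_1 percentiles. Across the genome the share ranked higher in CBE_1 ran from 29.0% in the weakest quintile to 41.3% in the strongest. At IgH it was 60% in the weakest quintile (24 of 40 regions), 85.4%, 86.7% and 83.3% in the next, and 55.6% in the strongest (5 of 9). The IgH share was above the genome's in every quintile, though the strongest held only 9 IgH regions.

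Along IgH the ranks of the lines were closest around the constant, J and D segments and farthest apart at the VH segments nearest to D. The windows also started at different WT ranks, lowest at the VH segments nearest to D. On the constant side 6 of 11 shared regions ranked higher in CBE_1, and the median difference of the mean percentiles, CBE_1 minus WT, was 3.16 points. From Cμ to the D segments 3 of 5 did so, with a median difference of 3.57 points; 1 region spans both windows and counts in each. The region chr12:114664639-114670222 there stood at percentiles 84.0 and 85.6 in WT and 88.7 and 87.9 in CBE_1. Its neighbour chr12:114684987-114686143 stood at 70.0 and 68.2 in WT and 65.4 and 63.0 in CBE_1. Both lines thus ranked these regions in the upper part of the shared set, with the libraries of a line close together. The window from Cμ to D also held 1 WT-only region, chr12:114686333-114686621, with folds of 4.33 and 4.72, and no CBE_1-only region.

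The interval between D and the first VH segments, where IGCR1 lies, went the other way. It holds the element that is altered in CBE_1 by its label, and whether the altered sequence itself removed peaks was not tested. No region there was shared, so no ranks could be compared. Of its 4 regions 2 were WT-only, against 20.5% on the rest of chromosome 12, and none was CBE_1-only. It held 3 and 4 peaks in the WT libraries, 1 in CBE_1 replicate 1 and none in CBE_1 replicate 2. The WT-only regions chr12:114723239-114724090 and chr12:114725829-114726376 lie here, 852 and 548 bp wide. Both kept their WT-only pattern with lists of equal length, but that cut removes only weaker peaks and cannot add a CBE_1 peak. Of the 25071 WT-only regions, 1723 (6.87%) and 929 (3.71%), each counting the region itself, ranked at least as high in the WT library where they ranked lower. Many WT-only regions elsewhere were therefore as strong as this pair. Which of them coincides with which IGCR1 element was not tested, since no annotation of this build was used.

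In the proximal VH window, the part of the VH array nearest to D, 14 of 16 shared regions ranked higher in CBE_1 and 1 lower. The median difference was 20.7 points, against 12.1 over the 134 shared regions of the middle and distal VH window, where 106 ranked higher and 6 lower. The rest of chromosome 12 had a median of -0.20 points. Median WT percentiles (replicates 1 and 2) were 7.87 and 14.03 in the proximal and 29.60 and 32.73 in the middle and distal VH window. They were 46.00 and 46.89 on the constant side, and 59.26 and 55.41 from Cμ to D. A region ranked low in WT has more room to rise than to fall. How much of the difference between the windows follows the starting WT rank was not tested. The shared region closest to D, chr12:114762630-114763316, had folds of 3.14 and 3.52 in WT and 6.33 and 6.15 in CBE_1, and percentiles of 4.18 and 8.43 against 50.8 and 48.5. The region chr12:114816191-114816948 had folds of 4.76 and 4.61 in WT and 8.29 and 7.82 in CBE_1. At chr12:114825856-114826672 the folds were 3.03 and 3.30 in WT and 5.73 and 6.05 in CBE_1. These 3 regions stood 43.4, 38.5 and 42.3 points higher in CBE_1. They had the widest gaps of the 16, and the duplicates of a line lay close together in each. The exception that ranked lower, chr12:115170058-115170657, stood at 15.7 and 13.4 in WT and 2.60 and 8.36 in CBE_1. With lists of equal length 10 regions were left in this window, of which 8 ranked higher and 1 lower.

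**Figure D3:**
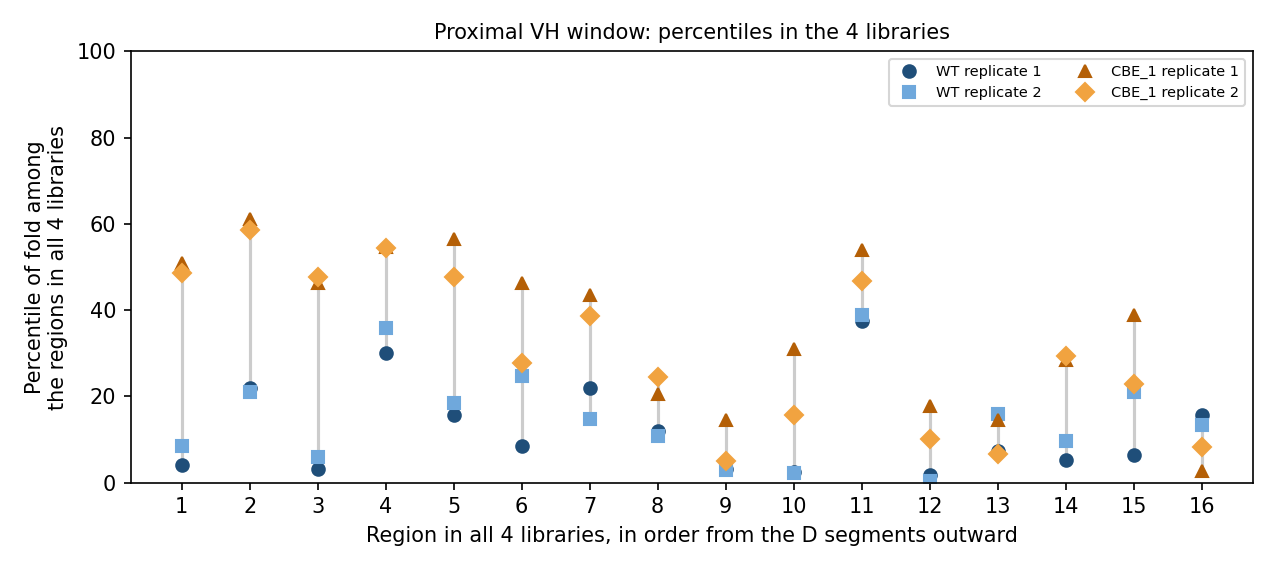
Percentile of fold among the 50364 regions in all 4 libraries (y axis) for the 16 shared regions of the proximal VH window, in order from the D segments outward (x axis); each symbol is 1 library and grey lines join the lowest and highest. CBE_1 libraries lie above both WT libraries in 14 of 16 regions, and the 3 regions nearest to D have the widest gaps, of 43.4, 38.5 and 42.3 points.

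Of the 41 regions of the proximal VH window 7 were CBE_1-only (17.1%, against 2.78% on the rest of chromosome 12) and none was WT-only (against 20.5%). All 7 were weak, with folds of 2.56 to 4.07 in CBE_1 replicate 1 and 2.40 to 2.92 in CBE_1 replicate 2. The first, chr12:114761746-114762122, lies next to the shared region closest to D. With lists of equal length 4 of the 7 lost their peak in CBE_1 replicate 2. The middle and distal VH window held 22 CBE_1-only regions (8.66%) and 6 WT-only regions (2.36%). The strongest of the 22, chr12:115733955-115734419, had folds of 5.28 and 5.11. The constant side had 3 CBE_1-only regions and 1 WT-only region, all with folds of at most 3.47.

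The light chain loci, which the labels do not list as altered, shared the direction of IgH. The Igk window, which holds the κ light chain segments, had 0.164% and 0.167% of the WT peaks and 0.264% and 0.284% of the CBE_1 peaks. Of its 143 shared regions 95 ranked higher in CBE_1 (66.4%, against 32.7% on the rest of chromosome 6) and 8 lower, with a median difference of 8.74 points. It held 17 CBE_1-only regions (6.77%, against 2.97% elsewhere on chromosome 6) and 7 WT-only regions (2.79%, against 19.1%). Of the WT-only regions 3 lay close together between 70669687 and 70672930 on chromosome 6, and the strongest, chr6:70670300-70670929, had folds of 7.14 and 6.15 in WT. In the Igl window, the λ light chain locus, 10 of 14 shared regions ranked higher (71.4%, against 31.6% on the rest of chromosome 16) and 1 lower. Its region with the widest shift, chr16:19015931-19016542, stood at 10.8 and 27.0 in WT and at 62.7 and 69.7 in CBE_1.

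Windows of genes that mark the B lineage held peaks in all 4 libraries, but so did windows of T cell receptor loci. Peaks alone thus did not check the labelled cell type. In the Rag1 and Rag2 window, the genes of the recombinase, 10 of 11 shared regions ranked higher in CBE_1 and 1 lower, against 37.1% and 31.4% on the rest of chromosome 2. Its region chr2:101490501-101491561 had folds of 4.54 and 3.96 in WT and 7.84 and 7.71 in CBE_1, a difference of 42.3 points. A stronger one, chr2:101489278-101490048, had folds of 8.01 and 8.13 in WT and 16.4 and 14.2 in CBE_1. In the window of Ebf1, a transcription factor that commits cells to the B lineage, 16 of 19 shared regions ranked higher and none lower. The region chr11:44520980-44521672 there had folds of 3.46 and 3.41 in WT and 6.64 and 7.82 in CBE_1. Chromosome 11 as a whole leaned the same way, with 57.5% higher outside this window. The window of Ikzf1, which encodes Ikaros, lies on the same chromosome, and 7 of its 19 shared regions ranked higher and 4 lower. Its widest shift was downward: chr11:11658817-11659540 had folds of 10.1 and 10.5 in WT and 3.62 and 4.79 in CBE_1. In the window of Pax5, which maintains B cell identity, 13 of 21 ranked higher (61.9%) and 6 lower (28.6%), against 34.7% and 34.2% on the rest of chromosome 4. At equal length the lean was weaker, with 9 of 17 higher (52.9%) and 6 lower (35.3%), against 35.7% and 34.2%. The Pax5 window also held a region far lower in CBE_1, chr4:44864730-44865261, at percentiles of 64.3 and 69.3 in WT and of 20.6 and 6.65 in CBE_1. The Ikzf1 window had 7 WT-only regions (18.4%, against 11.6% on the rest of chromosome 11) and no CBE_1-only region. The Ebf1 window had 5 WT-only (9.62%, against 11.7%) and 3 CBE_1-only regions (5.77%, against 5.04%). The Pax5 window had 5 WT-only (10.4%, against 17.7%) and 3 CBE_1-only regions (6.25%, against 2.48%). The Rag1 and Rag2 window had neither.

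The T cell receptor windows did not lean toward CBE_1. In the Tcra and Tcrd window 10 of 40 shared regions ranked higher (25%) and 10 lower (25%), against 30.5% and 38.6% on the rest of chromosome 14. In the Tcrb window 8 of 29 ranked higher (27.6%) and 8 lower (27.6%), against 34.6% and 34.4% on the rest of chromosome 6. In the Tcrg window 7 of 25 ranked higher (28%) and 8 lower (32%), against 36.1% and 33.9% on the rest of chromosome 13. Their median differences were 0.73, 1.16 and -0.19 points. The Tcrg window had 16 WT-only regions among 55 (29.1%, against 19.7% on the rest of chromosome 13). The strongest, chr13:19433089-19434172, had folds of 9.95 and 9.67 in WT. It was 1 of 7 between 19428186 and 19446846. The Tcra and Tcrd window had 18 WT-only regions (19.4%, against 20.7% on the rest of chromosome 14) and 2 CBE_1-only regions (2.15%, against 1.94%), both near the background. The Tcrb window had 6 WT-only regions among 59 (10.2%, against 18.6% on the rest of chromosome 6) and 2 CBE_1-only regions (3.39%, against 3.10%). The window of Myc, a growth-promoting transcription factor, had 9 of 36 shared regions ranked higher (25%) and 12 lower (33.3%), against 42.1% and 28.2% on the rest of chromosome 15. Its strongest WT-only region, chr15:62189857-62190406, had folds of 8.87 and 11.1.

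In the window of Cdkn2a and Cdkn2b, which encode cell cycle inhibitors, none of 6 shared regions ranked higher in CBE_1 and 4 ranked lower, against 35.0% and 34.1% on the rest of chromosome 4. The region chr4:88926931-88929238 had percentiles of 77.5 and 76.4 in WT and 63.6 and 57.7 in CBE_1. Of the 22 regions of the window 4 were CBE_1-only (18.2%, against 2.46%), and 3 of them had folds of at most 4.48. The strongest, chr4:88940033-88941848, 1816 bp wide, had folds of 16.4 and 11.2 there and no peak in either WT library. Counting itself, it was among the 116 of 3906 CBE_1-only regions (2.97%) with the best rank. It stayed CBE_1-only with lists of equal length, but that cut removes only weaker peaks and cannot add a WT peak. The window therefore held shifts in both directions.

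**Figure D4:**
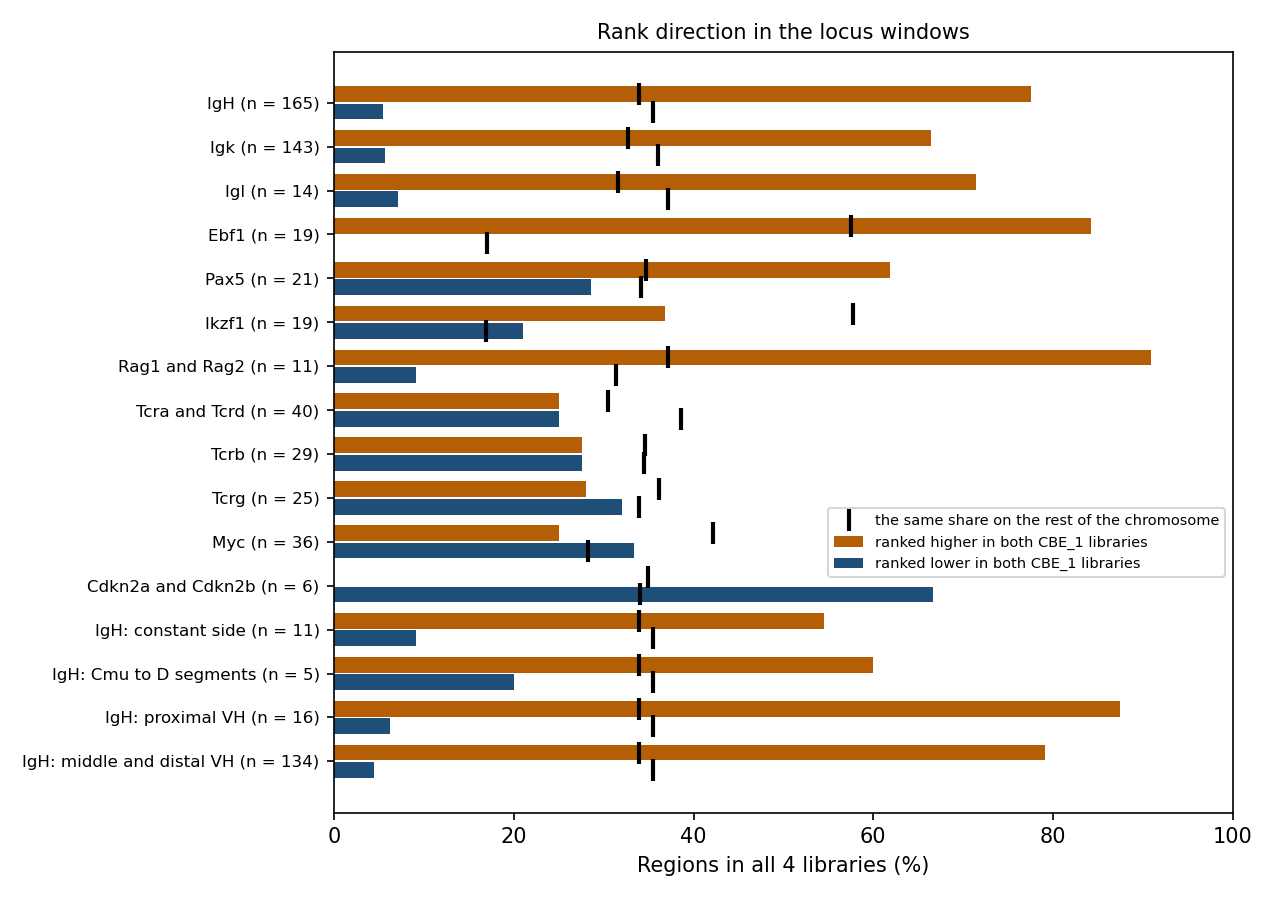
Share of the regions in all 4 libraries (x axis, %) that ranked higher (orange) or lower (blue) in both CBE_1 libraries than in both WT libraries, by locus window (y axis, n is the number of shared regions); black ticks give the same share on the rest of the chromosome. Immunoglobulin, Rag, Ebf1 and Pax5 windows extend to the right of their ticks for the higher share (77.6% at IgH against 34.0%). The Ikzf1 window (36.8% against 57.7%), the T cell receptor windows and the windows of Myc and of Cdkn2a and Cdkn2b do not. The interval between D and VH has no shared region and is not drawn.

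Whole chromosomes also leaned. Chromosomes on which both CBE_1 shares of peaks exceeded both WT shares numbered 11 of 20 (55%), and those with the reverse 8 of 20 (40%). With lists of equal length the counts were 6 (30%) and 8 (40%), and chromosome 12 turned from higher to lower. With the deposited lists the widest gaps, as ratios of the mean shares, were on chromosomes 19, 11 and 10. Chromosome 11 held 5.27% and 5.34% of peaks in WT and 7.14% and 6.72% in CBE_1, and 57.6% of its shared regions ranked higher in CBE_1 against 16.9% lower. Chromosome 19 held 3.79% and 3.75% in WT and 2.79% and 2.70% in CBE_1, with 19.9% of shared regions higher and 55.7% lower. Chromosome 10 held 6.73% and 6.71% in WT and 5.29% and 5.28% in CBE_1, with 26.2% higher and 46.8% lower. WT-only regions made up 27.8% of the regions of chromosome 19, 23.7% of chromosome 10 and 11.7% of chromosome 11. The chromosome 19 share was 49.5% without WT replicate 1 and 53.3% without WT replicate 2, where a peak in 1 WT library suffices. Outside these 3 chromosomes 36.1% of shared regions ranked higher and 33.0% lower.

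These leans ran along the length of the chromosomes. Of 2082 bins of 1 Mb with at least 20 peaks, 34.5% had a higher share of peaks in both CBE_1 libraries and 44.6% a lower share. On chromosome 19, 49 of 58 bins were lower in CBE_1 and 2 higher. On chromosome 10, 80 of 114 were lower and 21 higher. On chromosome 11, 69 of 100 were higher and 11 lower. Of the regions of chromosome 18, 26.0% were in all 4 libraries, the lowest share of the 20 chromosomes, against 47.2% on chromosome 11. At equal length chromosome 18 held 4.16% of the peaks in each WT list and 5.68% and 5.40% in CBE_1. That gap was similar in size to that of chromosome 11 (5.91% and 5.99% against 7.14% and 6.77%). With the deposited lists chromosome 18 held 5.37% and 5.20% in WT and 5.68% and 5.97% in CBE_1. Its ranks did not lean toward CBE_1 as on chromosome 11, with 31.0% of shared regions higher and 33.9% lower.

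**Figure D5:**
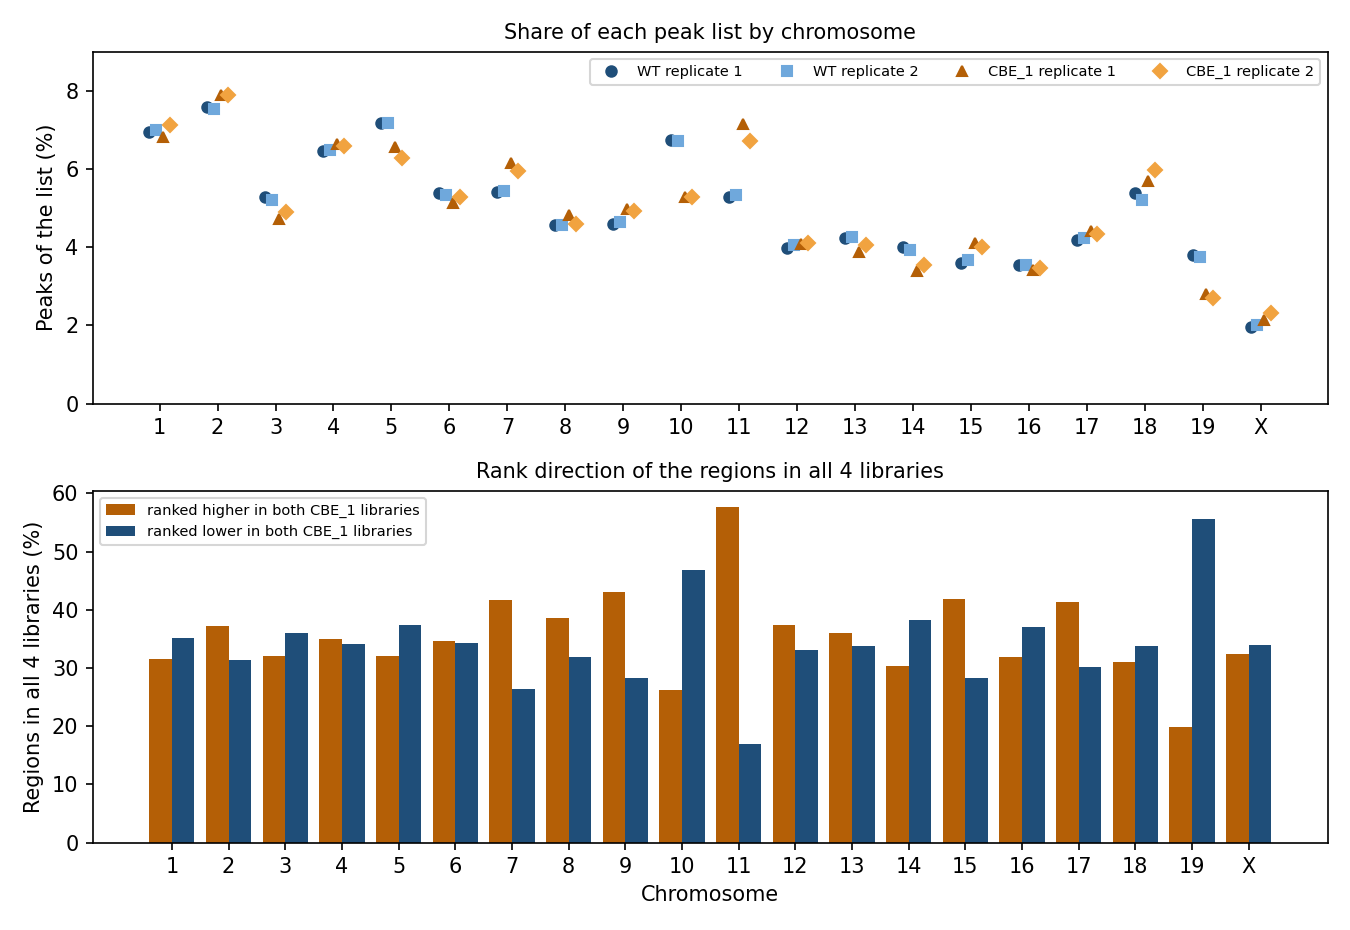
Upper panel, share of each list's peaks on each chromosome (y axis, %; 1 symbol per library); lower panel, share of the regions in all 4 libraries that ranked higher (orange) or lower (blue) in both CBE_1 libraries (y axis, %), by chromosome (x axis). Chromosomes 10 and 19 lean toward WT and chromosome 11 toward CBE_1 in both panels, with 55.7% of shared regions lower on chromosome 19 and 57.6% higher on chromosome 11.

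Some runs of neighbouring WT regions had almost no peak in CBE_1. A run counts WT-only regions that follow one another among regions found in both libraries of at least 1 line. The longest, chr12:108388291-109391329, had 37 WT-only regions over 1003 kb, with 51 and 40 peaks in WT, 1 in CBE_1 replicate 1 and none in CBE_1 replicate 2. It lies on the chromosome of IgH but outside the IgH window, and was the longest at equal length too, with 26 regions. The next, on chromosome 10 from 45733146 to 50089441, had 35 regions and no CBE_1 peak. The third, chr14:111456688-114436682, had 34 regions, 72 and 56 WT peaks, and 1 and 5 CBE_1 peaks. In all, 76 runs had 10 regions or more, and 23 did at equal length. Without WT replicate 1 or WT replicate 2, where a peak in 1 WT library suffices, the longest run held 60 and 70 regions.

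CBE_1-only regions formed shorter runs, and 68.6% of them stood alone, against 37.8% of WT-only regions. At equal length the shares were 63.5% and 46.5%. WT-only regions were more numerous, and a more numerous class has longer runs and fewer lone regions by number alone. Whether either class clustered beyond its number was not tested. The longest CBE_1-only runs had 10 regions each. One spanned chr10:36875999-37024937 with 10 and 11 CBE_1 peaks, and another spanned 41.8 kb at chrX:47919495-47961267 with 11 and 10. Neither held a WT peak. With lists of equal length both grew, to 17 and 15 regions. Without WT replicate 2, where only 1 WT library must lack a peak, the longest run held 16. The 1 Mb bin around the latter, chrX:47000001-48000000, held 5 and 3 WT peaks and 18 and 18 CBE_1 peaks. It had the lowest share of WT peaks relative to CBE_1 of any bin with at least 20 peaks. At the other end, 4 bins held no CBE_1 peak, led by chr10:49000001-50000000 with 32 and 31 WT peaks and chr19:49000001-50000000 with 18 in each WT library.

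Strong peaks were also found in 1 line alone. The best-ranked WT-only region, chr17:81823495-81824498, had folds of 25.3 and 25.8 and stood at percentile 99.5 of each WT list by significance. On chromosome 10, chr10:126077743-126080579, had folds of 25.0 and 25.7, and its neighbour chr10:126109401-126111588 had folds of 23.3 and 22.3. Of the 10 best-ranked WT-only regions 4 lay on chromosome 10, which held 2133 of all 25071 WT-only regions. The lowest fold among the 10 was 19.8. The best-ranked CBE_1-only regions were chr18:35657594-35659451, with folds of 31.4 and 23.5, and chr6:37390964-37393108, with folds of 31.4 and 26.2. A pair on chromosome 2, at 142726186 to 142727803 and 142728061 to 142729665, had folds of 25.8 and 20.8, and of 25.8 and 21.2. All 20 of these regions kept their pattern with lists of equal length. That is no check, since the cut only removes weaker peaks and adds none in the other line.

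Among the shared regions the widest shifts took a region from near the bottom of one line's ranks to near the top of the other's. The region chr8:35217116-35218316 had folds of 3.25 and 2.97 in WT and 24.4 and 19.2 in CBE_1, a difference of 85.4 points. On chromosome 12, chr12:114376706-114380251, near the IgH window but outside it, stood 84.8 points higher in CBE_1, with folds of 2.92 and 3.41 in WT and 23.4 and 19.9 in CBE_1. In the other direction chr4:151931820-151933747 had folds of 24.3 and 22.3 in WT and 3.47 and 2.92 in CBE_1, a difference of -87.3 points. The regions chr3:152418420-152423020 and chr1:189200191-189203616 differed by -87.1 and -86.0 points. The CBE_1 duplicates of these 3 regions lay apart, at percentiles of 14.5 and 4.96, 17.7 and 6.65, and 20.6 and 2.28, but all were far below WT. Shifts of 50 points or more occurred in 308 regions upward and 339 downward, and at equal length in 193 and 338.

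Widths differed with the class of region. The median was 413 bp for WT-only regions, 473 bp for CBE_1-only regions and 949 bp for regions in all 4 libraries. Regions of 1000 bp or wider made up 4.34%, 12% and 47.5% of these classes. At equal length the order of the line-specific classes turned, to 494 bp for WT-only and 478 bp for CBE_1-only regions, with 9.07% and 10.7% at 1000 bp or wider. The median peak of a list was 445 and 446 bp wide in WT and 463 and 464 bp in CBE_1 (two-sided exact permutation p = 0.33). With lists of equal length this order turned, to 637 and 609 bp in WT and 463 and 505 bp in CBE_1, where more of the WT than of the CBE_1 peaks are left out.

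Within regions in all 4 libraries CBE_1 peaks covered less of each region. The median covered length was 827 and 793 bp in WT and 625 and 691 bp in CBE_1. In 52.1% of regions both CBE_1 libraries covered less than both WT libraries, and in 11% both covered more. At equal length these shares were 53.4% and 10.1%. CBE_1 also broke more regions into separate peaks, in 11.8% and 10.8% of regions against 7.23% and 9.09% in WT. The WT lists were longer, and this split into separate peaks was not repeated at equal length. The covered length was, with medians of 896 and 861 bp in WT and 680 and 746 bp in CBE_1. Equal length is not equal stringency, and the part of stringency or read depth in these widths was not tested.

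The summit, the point of highest signal, lay at nearly the same place in both lines. In 39387 regions with exactly 1 peak in each library, summits lay a median of 26 bp apart between the WT libraries and 36 bp between the CBE_1 libraries. Between the lines the median was 33 to 38 bp. Summits over 500 bp apart made up 0.60% and 0.53% of regions within the lines and 0.96% to 1.14% between them.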

How the data were processed

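The authors' notes name Trimmomatic, Bowtie2, SAMtools and Picard and the build mm9, per the submitters' processing notes. No peak caller or setting is given in the sources used here, nor whether reads were shifted for the transposase. The authors deposited 1 peak list per library, with peak positions, a score, a fold over background (a ratio), −log10 p-value and −log10 q-value. The score was not used. The folds and −log10 values are the authors' own, and served only for ranks, filters and descriptions inside each list.

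From these files, peaks of the 4 lists were merged with Python 3.11.15, pandas 2.3.3 and NumPy 2.4.6. Percentiles used pandas, and Wilson intervals of 95% and exact permutations used SciPy 1.17.1. Merging, patterns and ranks were tested on simulated data with known answers. Coordinates are 1-based positions of mm9. Locus windows come from general knowledge of mm9, with approximate borders that were not checked against an annotation. A window can hold neighbouring genes. Since the gene and promoter tables at hand use a different assembly, no region is given a gene name or a sequence.

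Regions named are the 10 best-ranked of each line, the 10 widest rank shifts each way, the longest runs, the extreme 1 Mb bins, the line-specific regions of the windows, and chromosomes without overlap between the lines. The text gives the leading ones. Shared regions named inside the windows, and the limit of 25 or 50 points, were chosen after their values were seen. Members, windows and lists were chosen with earlier results of these data known. Alternatives were lists of equal length, the better 50% of each list, a deposited q below 1e-05, other merging rules and leaving out each library. The CBE_2 libraries were left out.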

Additional observations from a re-analysis of the deposited data

How the results depend on the processing

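Read depth is unknown, and counts of line-specific regions moved with how many peaks entered. WT-only regions numbered 11653 with lists of equal length, 13996 with the better 50% of each list and 5346 when a region had to be in the better 50% of both lists of its line and in neither full list of the other line, and ranged from 27567 to 43907 with 1 library left out. CBE_1-only regions numbered 6355, 1893 and 921 under the same 3 settings, and ranged from 4710 to 10233. WT-only regions outnumbered CBE_1-only regions under all of these settings. Regions in all 4 libraries numbered 30649 with the better 50% of each list. With 1 library left out, a shared region needs to be in the remaining 3. The rules for line-specific and for ranked regions are then looser too.

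The share of shared regions ranked higher in CBE_1 was 37.2% with lists of equal length, 37.8% with the better 50% and 37.0% with q below 1e-05, and 42.3% to 45.9% with 1 library left out. The share ranked lower was 35.5% with the better 50% and 34.2% with q below 1e-05, and 39.5% to 42.3% with 1 library left out. The difference in median peak width, WT minus CBE_1, turned from -18 bp to 139 bp with lists of equal length. It kept its direction at -99.5 bp with the better 50% of each list and at -67.3 bp with q below 1e-05. In the IgH window, CBE_1-only regions numbered 82 without CBE_1 replicate 1 and 57 without CBE_1 replicate 2. WT-only regions there numbered 16 without WT replicate 2 and 21 without CBE_1 replicate 2. The share of IgH regions ranked higher was 77.6% with all 4 libraries and 79.9% with lists of equal length. It was 79.5% to 83.6% with 1 library left out, where the share over all shared regions rose too. The alternative without chromosomes 10, 11 and 19 was chosen after seeing the data. No paired analysis was possible because the labels give no replicate numbers.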
